A study of Mus musculus with 8 samples.

Results

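Genes of cholesterol synthesis and of its control by SREBP2 were described across 4 states of mouse alveolar macrophages, which live in the airspaces and engulf particles and surfactant. The members were 27 gene symbols chosen by function, and 26 of them had a row among the 37310 gene IDs of the count table. Hmgcs1 was not matched by its symbol and is not analysed here. All 26 passed the filter on low counts, which left 14537 genes tested.

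Cultured cells (exAM) were alveolar macrophages of C57BL/6 mice that had been expanded ex vivo for 2 months and were not sorted. Transplanted expanded cells (texAM) were exAM given through the airways to C57Bl/6-Ly5.1 mice and sorted as CD45.2+ cells after 4 months in the lung. Transplanted cells (tAM), of strain C57BL/6 and also CD45.2+, had likewise been in a recipient lung for 4 months, and resident cells (HostAM) were sorted as CD45.1+ cells of the C57Bl/6-Ly5.1 strain. The labels do not say whether the HostAM mice had received cells or PBS, nor how tAM were prepared. The 3 lung groups were sorted as SiglecF+ and CD11c+ cells, and donors and recipients were 8 weeks old when cells were isolated or given. Each group had 2 libraries, each from a pool of 3 mice, so the spread between libraries is that between pools. The libraries held 6546272 to 9154128 counts, and the members took 0.223% to 0.285% of them.

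Cholesterol is built from acetyl-CoA by way of mevalonate, the isoprenoid pyrophosphates, squalene and lanosterol, which late enzymes then turn into cholesterol. When sterols are scarce in the endoplasmic reticulum, the escort SCAP carries the membrane-bound factor SREBP2 to the Golgi, the proteases S1P and S2P release its active part, and genes of the pathway are transcribed. When sterols are plentiful, INSIG proteins hold SCAP back. Surfactant, which alveolar macrophages clear, is rich in lipid and contains cholesterol.

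Some members called between culture and lung are shown first by the sequence before their start, where sites for SREBP2 and its partner NF-Y were searched for. No window of the members shown held the strict core of the sterol response element, which is given further below. The promoter table of RefSeq (build GRCm38.p6) held 29 windows of 250 bases for 23 of the 27 listed members. Each sequence below is the stretch of such a window that no GENCODE M21 exon covers, given 5′ to 3′ on the gene's strand. Capitals mark the NF-Y box (CCAAT on either strand) and the GC box (GGGCGG on either strand), which do not overlap each other here.
Dhcr7, chr7:143822917-143823144, plus strand: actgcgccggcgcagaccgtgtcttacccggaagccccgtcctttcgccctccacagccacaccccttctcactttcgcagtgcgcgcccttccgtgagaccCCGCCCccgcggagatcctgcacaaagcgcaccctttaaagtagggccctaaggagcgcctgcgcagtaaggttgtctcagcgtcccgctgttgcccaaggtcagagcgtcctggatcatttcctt
Soat1, chr1:156474332-156474578, minus strand: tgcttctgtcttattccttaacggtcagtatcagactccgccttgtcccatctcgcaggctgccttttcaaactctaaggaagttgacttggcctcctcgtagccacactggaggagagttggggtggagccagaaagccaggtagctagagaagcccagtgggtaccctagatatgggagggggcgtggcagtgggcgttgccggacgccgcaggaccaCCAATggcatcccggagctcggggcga
Srebf2, chr15:82147019-82147180, plus strand: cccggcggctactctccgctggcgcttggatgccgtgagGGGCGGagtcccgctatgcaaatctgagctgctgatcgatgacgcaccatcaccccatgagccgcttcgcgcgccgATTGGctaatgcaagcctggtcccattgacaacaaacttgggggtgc
Pmvk, chr3:89454291-89454540, plus strand: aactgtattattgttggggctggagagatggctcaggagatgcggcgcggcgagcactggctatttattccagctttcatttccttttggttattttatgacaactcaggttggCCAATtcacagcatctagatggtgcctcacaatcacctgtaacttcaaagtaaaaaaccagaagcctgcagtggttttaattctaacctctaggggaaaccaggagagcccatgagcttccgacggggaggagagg
Mvk, chr5:114444061-114444268, plus strand: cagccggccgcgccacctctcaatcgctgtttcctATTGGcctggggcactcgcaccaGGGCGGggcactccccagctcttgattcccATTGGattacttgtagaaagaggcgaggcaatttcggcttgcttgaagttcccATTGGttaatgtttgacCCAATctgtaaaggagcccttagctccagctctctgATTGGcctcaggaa
Dhcr7 and Soat1 were the members with the largest called rises in culture, and Mvk, Pmvk and Srebf2 were called lower there. The 5 were chosen for display after their values were seen. The printed Mvk sequence carried 5 NF-Y boxes. The one of Dhcr7 carried 1 GC box and no NF-Y box, but Dhcr7 has 2 further starts in the table, and the window of one of them holds 2 NF-Y boxes and 3 GC boxes. Pmvk has a further start too, whose window holds neither box. The full windows of Srebf2 and Mvk hold 4 and 2 GC boxes, of which each printed stretch shows 1. The counts do not tell the starts apart.

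Over all 32851 promoter windows of the table, 33.8% held an NF-Y box, as did 19 of the 29 member windows. A GC box was in 32.7% of all windows and in 21 of the 29. The E-box CACGTG was in 6.02% of all windows and in 5 of the 29. The strict core of the sterol response element, TCACNCCAC on either strand, was in 1.05% of all windows and in 1 member window, that of Hmgcs1, which has no values here. Windows of the same gene can overlap, and a match describes letters only.

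As a check of the label, all 12 markers of alveolar macrophages were counted in every group. Their sum was 3469 to 4093 CPM in the lung libraries and 5046 and 4331 CPM in exAM. Siglecf stood at 299.6 to 338 CPM in the means of the lung groups and 186 CPM in exAM. CPM relates counts to the library total, here scaled by the trimmed mean of M values (TMM). Of the 12 markers, 8 were called higher in exAM than in the lung average, where 25.5% of all genes were. Called lower were 3, where 26.6% of all genes were. Krt79 was among those that fell, to 1.73 CPM in exAM, and Marco among those that rose. Markers of other cells moved with culture. Red cell and platelet markers summed to 86.9 to 199 CPM in the 6 lung libraries and to 1.89 and 0.154 CPM in exAM, and lymphocyte markers to 19.5 to 144 CPM and to 1.37 and 4.32 CPM. Endothelial and stromal markers summed to 6.73 to 21.6 CPM in lung and to 62.6 and 71.8 CPM in exAM. Of 6 tested genes of that list, 4 were called higher in exAM than in the lung average and 0 lower. Cdh5 and Pdgfra stood highest in exAM, with means of 23.2 and 30.5 CPM. Pecam1 and Acta2 were not called against the lung average. Of the 10 markers, 4 had no count in exAM, and 7, 3 and 3 had none in tAM, texAM and HostAM. The surfactant gene Sftpc, which defines type II epithelium, had a mean of 13.6 to 15.0 CPM in the lung groups and no count in exAM, where 7 of 15 epithelial markers were at 0. Of 14 tested genes of the epithelial list, 11 were called lower in exAM and 2 higher, where 26.6% and 25.5% of all genes were. The median log2 change was -6.24. Those called higher were Cdh1 (1.73-fold) and Etv5 (16.1-fold). The sum of the list was 661 to 872 CPM in the lung libraries and 672 and 624 CPM in exAM, so that the ranges overlapped. Of the exAM sum, Cdh1 alone made up a mean of 399 CPM. The part of these markers of other cells in the results was not tested. The Y-linked Ddx3y had 55 and 59 counts in exAM and 0 in every lung library, those of texAM included. Xist, which female cells transcribe, had 4669 and 6850 counts in exAM and 12061 to 15435 in the lung libraries. The exAM pools thus held transcripts of both kinds, and the sex of the pools and culture cannot be told apart. This touches the X-linked members Ebp, Nsdhl and Mbtps2 in particular. In bulk libraries, fewer cells of a type and less RNA per cell cannot be told apart either.

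**Figure D1:**
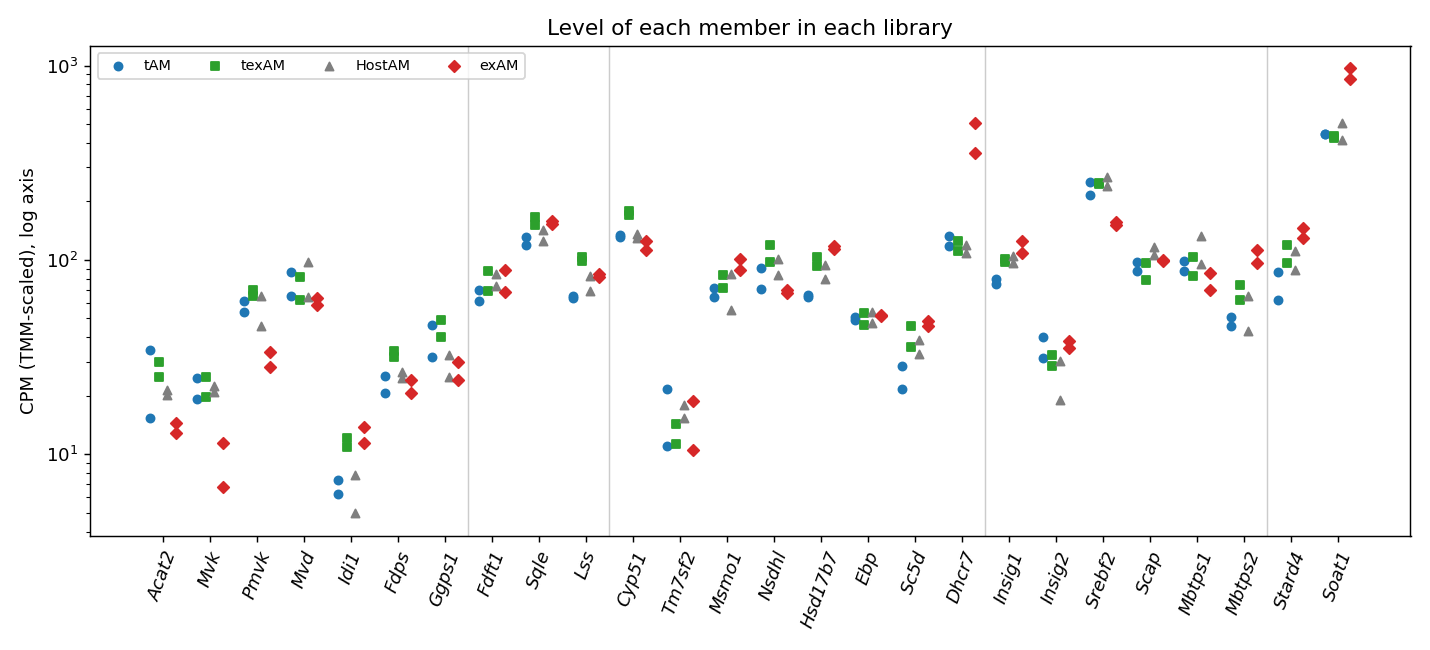
Levels of the 26 members in each of the 8 libraries, as TMM-scaled CPM on a log axis. Members are ordered by role, with grey lines between the mevalonate and isoprenoid steps, the steps from squalene to lanosterol, the steps from lanosterol to cholesterol, SREBP2 control, and transport and storage. Each point is 1 library. The 2 exAM points of Dhcr7 and Soat1 stand above all lung points, and those of Srebf2, Pmvk and Mvk below them.

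The first question was how culture and lung residence differ in this pathway. Cultured cells did not shift it in 1 direction. Against the average of the 3 lung groups, 7 of 26 members rose in exAM and 6 fell. The late enzyme gene Dhcr7 rose 3.61-fold and the sterol-esterifying enzyme gene Soat1 2.06-fold, while Mvk, Pmvk and Srebf2 fell 2.41-fold, 1.94-fold and 1.59-fold. Of all tested genes, 25.5% were called higher and 26.6% lower in the same test, so the share of members called was near that of any genes. The median log2 change was 0.06 over the members and -0.10 over all tested genes. Calls are at an adjusted p under 0.05 in edgeR's quasi-likelihood test. With libraries scaled by their size alone, 4 members were higher and 9 lower, the members' median was -0.14 and that of all genes -0.30. The share of all genes called under that scaling is not given here. Without texAM replicate 1, exAM replicate 1 or exAM replicate 2, 3 members were called lower.

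**Figure D2:**
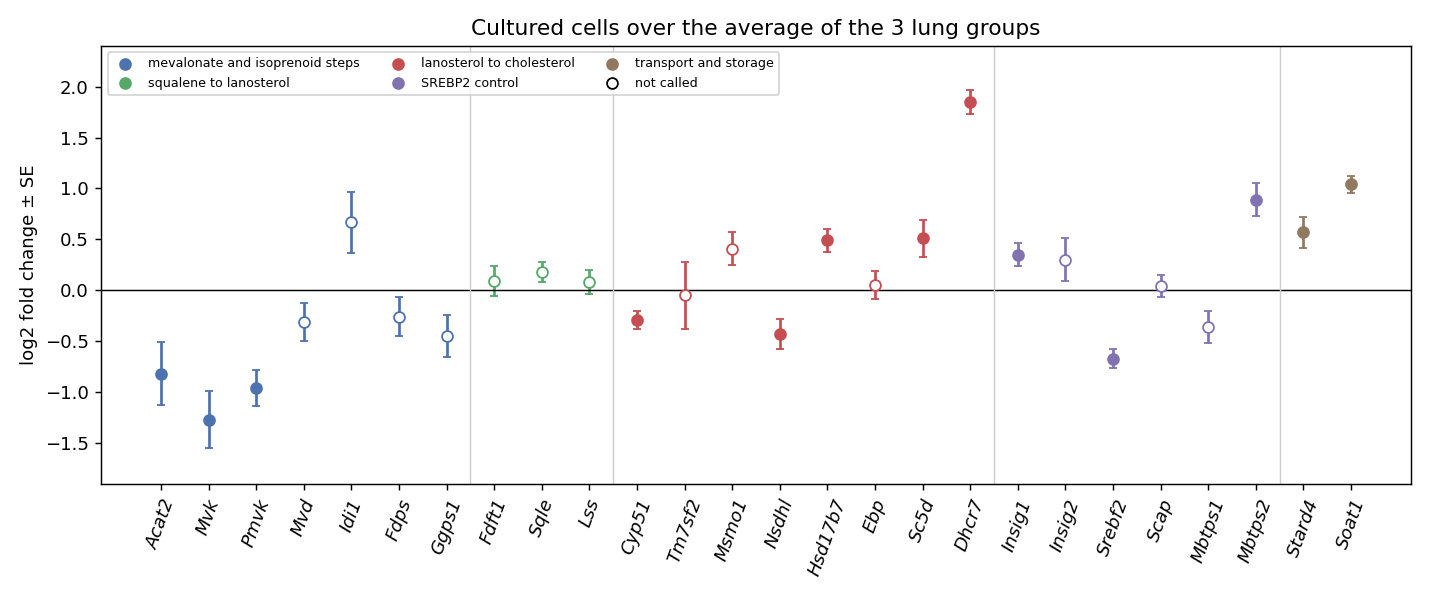
Log2 fold change of exAM over the average of tAM, texAM and HostAM for each member, with its standard error, by edgeR. Filled points are called at an adjusted p under 0.05, open points are not, and colours give the role. Filled points lie on both sides of 0, from -1.27 for Mvk to 1.85 for Dhcr7.

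Of the 7 genes of the mevalonate and isoprenoid steps, 3 were called lower in exAM and 0 higher, where 26.6% and 25.5% of all genes were, and the median log2 change was -0.45. Of these 3 calls, only that of Pmvk held without each single library. Pmvk encodes phosphomevalonate kinase (chromosome 3, 89454541 to 89469013, GRCm38). Its level was 54.2 and 61.2 CPM in tAM, 65.5 and 70.3 CPM in texAM, 65.4 and 45.5 CPM in HostAM, and 33.6 and 28.3 CPM in exAM. The exAM libraries thus lay below every lung library (log2 change -0.96 ± 0.18, SE, edgeR adjusted p = 0.00124). Mvk, for mevalonate kinase (chromosome 5, 114444269 to 114460591), was at 24.7 and 19.2 CPM in tAM, 25.0 and 19.7 CPM in texAM, 20.8 and 22.6 CPM in HostAM, and 11.5 and 6.79 CPM in exAM. These groups did not overlap either (-1.27 ± 0.28, adjusted p = 0.0035), but without exAM replicate 2 the call was lost (adjusted p = 0.0568). Acat2, for the cytosolic thiolase that starts the pathway, was at 15.3 and 34.4 CPM in tAM, 24.8 and 29.9 CPM in texAM, 20.2 and 21.3 CPM in HostAM, and 12.9 and 14.5 CPM in exAM. The tAM libraries of Acat2 stood far apart from each other. Its call (-0.82 ± 0.31, adjusted p = 0.0449) was lost when any library except tAM replicate 1 was left out, with adjusted p of up to 0.228.

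The other 4 genes of these steps were not called in this comparison. Idi1, the isomerase of isopentenyl pyrophosphate, had a log2 change of 0.67 ± 0.30 (adjusted p = 0.0814), opposite in sign to its neighbours. Its level was 11.5 and 13.9 CPM in exAM, against 4.96 to 12.1 CPM in the lung libraries. Mvd, Fdps and Ggps1, which encode mevalonate diphosphate decarboxylase and the synthases of farnesyl and geranylgeranyl pyrophosphate, had log2 changes of -0.31, -0.26 and -0.45. Mvd ranged from 62.1 to 97.2 CPM in the lung libraries and was at 63.8 and 59.0 CPM in exAM. Ggps1 was at 46.4 and 31.7 CPM in tAM, 49.3 and 40.3 CPM in texAM, 32.4 and 25.1 CPM in HostAM, and 24.01 and 29.95 CPM in exAM. It was called only between texAM and exAM, and that call was lost without any of the 4 libraries of these groups.

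From squalene to lanosterol no member was called against the lung average. Sqle encodes squalene epoxidase, a rate-limiting enzyme of the pathway, and was at 131 and 119.6 CPM in tAM, 152 and 166 CPM in texAM, 125 and 143 CPM in HostAM, and 159.5 and 154 CPM in exAM. The exAM libraries fell within the range of texAM. Against tAM alone Sqle was called higher (0.32 ± 0.12, adjusted p = 0.046). That call held in 5 of 16 alternatives. The squalene synthase gene Fdft1 and the lanosterol synthase gene Lss had log2 changes of 0.09 ± 0.15 and 0.08 ± 0.12 against the lung average. Exons of Fdft1 share 774 bases with the opposite strand gene Ctsb, which was higher in exAM (1.14, adjusted p = 4.26e-07). Whether counting used the strand is not given, so reads there cannot be told apart. This holds for 166 bases of Cyp51 and Akap9 and 381 bases of Lss and an antisense gene too. Opposite strand genes also share 985 exon bases with Scap, 323 with Idi1 and 257 with Ggps1. Genes on the same strand share 1124 bases with Fdps and 532 with Tm7sf2.

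The late steps went both ways, with 3 of 8 genes higher and 2 lower, where 25.5% and 26.6% of all genes were called. Dhcr7 encodes 7-dehydrocholesterol reductase, which makes cholesterol in the last step of one branch of the pathway (chromosome 7, 143823145 to 143848410). Its level was 133 and 118 CPM in tAM, 112 and 125 CPM in texAM, 109 and 119.8 CPM in HostAM, and 507 and 354 CPM in exAM. The lung groups lay close together and far below both exAM libraries (1.85 ± 0.12, adjusted p = 8.57e-07). Sc5d, whose enzyme makes the substrate of DHCR7, was at 21.6 and 28.6 CPM in tAM, 45.8 and 35.6 CPM in texAM, 32.8 and 38.8 CPM in HostAM, and 48.7 and 45.5 CPM in exAM. Here exAM overlapped texAM (0.51 ± 0.18, adjusted p = 0.0344), and the call was lost without tAM replicate 1, texAM replicate 2, HostAM replicate 1 or either exAM library, and with scaling by library size alone, with adjusted p of up to 0.172. The ratio of Dhcr7 to Sc5d in counts per base does not depend on how libraries are scaled. It was 4.14 to 10.5 in the 6 lung libraries and 17.7 and 13.2 in exAM.

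Hsd17b7, for a 3-ketosteroid reductase of this part of the pathway, was at 66.0 and 64.7 CPM in tAM, 103 and 92.6 CPM in texAM, 80.0 and 93.7 CPM in HostAM, and 114 and 117.5 CPM in exAM. Both exAM libraries lay above all others (0.49 ± 0.11, adjusted p = 0.00339). The lower calls were Cyp51 and Nsdhl, which act in the removal of methyl groups from lanosterol. Cyp51, for lanosterol demethylase, was at 135 and 131 CPM in tAM, 179 and 170.1 CPM in texAM, 129 and 135 CPM in HostAM, and 113 and 125 CPM in exAM. The difference was small (-0.29 ± 0.09, adjusted p = 0.022), with texAM highest, and was not called without texAM replicate 1 (adjusted p = 0.059) or exAM replicate 1 (adjusted p = 0.208). Nsdhl, an X-linked dehydrogenase gene, was at 71.3 and 91.0 CPM in tAM, 119 and 97.5 CPM in texAM, 101 and 83.2 CPM in HostAM, and 67.7 and 70.3 CPM in exAM (-0.43 ± 0.15, adjusted p = 0.0285). The groups did not overlap, yet the call was lost without tAM replicate 2, texAM replicate 1 or either exAM library (adjusted p of up to 0.162). Msmo1, for the methyl oxidase of these steps, was at 102 and 89.1 CPM in exAM and at 55.2 to 84.8 CPM in lung. These groups did not overlap, but the difference was not called by edgeR (0.41 ± 0.16, adjusted p = 0.0544). It was called in 5 of 15 alternatives, the DESeq2 Wald test among them. Tm7sf2 and Ebp were not called, and Ebp stood at 46.5 to 53.9 CPM in all 8 libraries.

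The genes of SREBP2 control did not move together. Srebf2, which encodes SREBP2 itself (chromosome 15, 82147181 to 82205379), was at 216 and 251 CPM in tAM, 246 and 249 CPM in texAM, 269 and 239 CPM in HostAM, and 152 and 156 CPM in exAM. It was lower in both exAM libraries than in any lung library (-0.67 ± 0.09, adjusted p = 0.000152). Insig1, a retention factor that is itself a target of SREBP2, was at 80.1 and 75.2 CPM in tAM, 97.9 and 101 CPM in texAM, 105 and 96.5 CPM in HostAM, and 126 and 109 CPM in exAM. It was called higher in exAM (0.35 ± 0.11, adjusted p = 0.0166), though not with libraries scaled by size alone (adjusted p = 0.237) or without exAM replicate 1 (adjusted p = 0.162). The related Insig2 was at 40.2 and 31.2 CPM in tAM, 28.6 and 32.5 CPM in texAM, 30.2 and 19.0 CPM in HostAM, and 35.3 and 38.4 CPM in exAM, with no call (0.30 ± 0.21, adjusted p = 0.245). The escort gene Scap was at 87.6 and 97.1 CPM in tAM, 96.2 and 79.2 CPM in texAM, 116 and 106 CPM in HostAM, and 100.3 and 98.2 CPM in exAM, so that exAM lay within the lung range (0.04 ± 0.11). The ratio of Insig1 to Insig2 in counts per base was 1.99 to 5.08 in the lung libraries and 3.56 and 2.84 in exAM, so these ranges overlapped.

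The 2 proteases of the Golgi had changes of opposite sign. Mbtps2, for S2P (chromosome X, 157535371 to 157598715), was at 46.0 and 51.2 CPM in tAM, 74.1 and 62.3 CPM in texAM, 43.0 and 65.6 CPM in HostAM, and 96.6 and 112 CPM in exAM. It rose in exAM (0.89 ± 0.16, adjusted p = 0.00108), while Mbtps1, for S1P, had a log2 change of -0.36 ± 0.16 (adjusted p = 0.0856). Exons of Mbtps2 share 2867 bases with those of Yy2, a gene with 0 counts in all libraries, and how the authors assigned such reads is not given in the sources used here.

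Both genes of sterol transport and storage were called higher in culture, where 25.5% of all genes were. Soat1, whose enzyme esterifies cholesterol for storage in droplets (chromosome 1, 156424525 to 156474331), was at 446 and 444 CPM in tAM, 434 and 425 CPM in texAM, 412 and 504 CPM in HostAM, and 970 and 855 CPM in exAM (1.04 ± 0.08, adjusted p = 2.71e-06). Stard4, for a carrier of sterols between membranes, was at 86.2 and 62.4 CPM in tAM, 96.5 and 119 CPM in texAM, 88.4 and 111 CPM in HostAM, and 129 and 146 CPM in exAM (0.57 ± 0.15, adjusted p = 0.00909). Its call was lost with scaling by library size alone (adjusted p = 0.0664) and without exAM replicate 2 (adjusted p = 0.0841). Calls that held under every alternative tried other than a 2-fold minimum were 6 in number, those of Dhcr7, Soat1, Srebf2, Pmvk, Hsd17b7 and Mbtps2.

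Dhcr7 and Soat1 carried the rise of the summed level. All 26 members together came to 2152 to 2486 CPM in the lung libraries and to 3204 and 2954 CPM in exAM. Without these 2 genes, singled out after their values were seen, the other 24 summed to 1573 to 1940.5 CPM in lung and to 1727 and 1744 CPM in exAM, within the lung range. Of the members' counts, Dhcr7 took 4.49% to 6.18% in lung and 15.8% and 12.0% in exAM, and Srebf2 took 9.88% to 11.7% and 4.73% and 5.28%. Per kilobase of the longest transcript, Dhcr7 ranked 5 among the members in the lung average, at 42.4 CPM per kilobase, and 1 in exAM, at 153 CPM per kilobase. Soat1 ranked 1 in lung, at 53.1 CPM per kilobase, and Idi1 ranked 26, at 2.73 CPM per kilobase. Dhcr7 and Soat1 were also the 2 members with over 0.5 counts per base of the longest transcript.

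**Figure D3:**
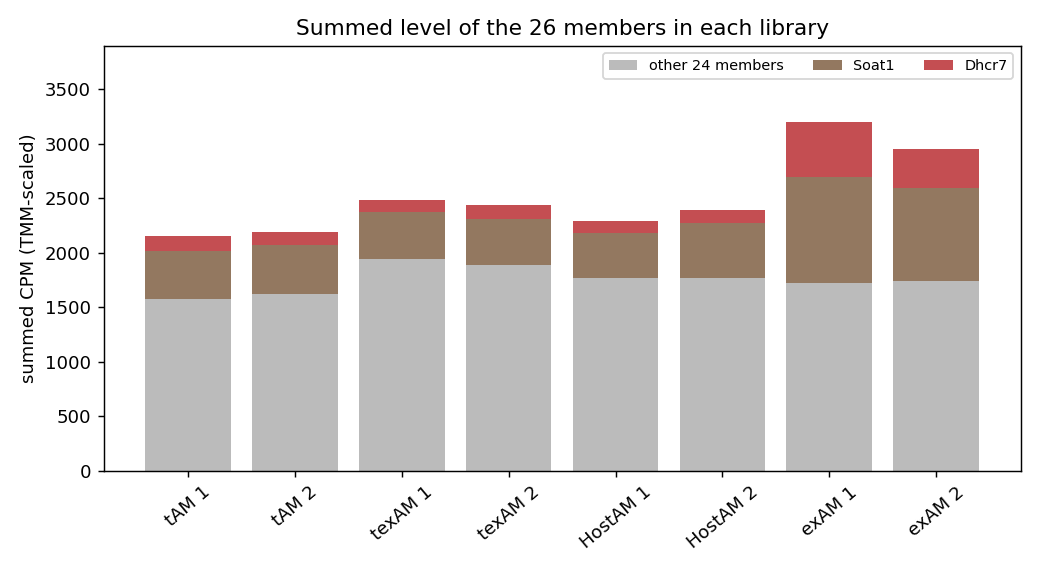
Summed TMM-scaled CPM of the 26 members in each library, split into Dhcr7, Soat1 and the other 24. The bars of exAM reach 3204 and 2954 CPM, while their grey part, 1727 and 1744 CPM, lies within that of the 6 lung libraries.

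Against tAM alone, 8 members were higher in exAM and 3 lower, where 21.5% and 23.2% of all tested genes were called. This comparison uses the same exAM libraries and is no separate result. Relative to the lung average, Sqle was added to the higher calls, and Acat2, Cyp51 and Nsdhl were not among the lower ones. With scaling by library size, 7 were higher and 6 lower, and without exAM replicate 2 only Srebf2 was called lower. Insig1 differed more from tAM (0.60 ± 0.13, adjusted p = 0.00428) than from the lung average, as did Stard4 (0.89 ± 0.19, adjusted p = 0.00363) and Hsd17b7 (0.82 ± 0.14, adjusted p = 0.000826); these differences between contrasts were not tested.

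The second question was what expanded cells show after 4 months in a lung. Between texAM and exAM, 7 members were higher in texAM and 3 lower, against 23.2% and 20.5% of all tested genes. Dhcr7 was 3.64-fold lower, Soat1 2.12-fold lower and Mbtps2 1.53-fold lower (edgeR adjusted p = 1.24e-05, 2.29e-05 and 0.0339), and the call of Mbtps2 held in 11 of 16 alternatives. Higher in texAM were Mvk, Pmvk, Acat2, Srebf2, Nsdhl, Cyp51 and Ggps1, from 2.45-fold for Mvk to 1.47-fold for Cyp51. Without texAM replicate 1, exAM replicate 1 or exAM replicate 2, the higher calls numbered 3, 4 and 3. With scaling by library size alone, 9 were higher and 2 lower. Cyp51 was at 175 ± 6.65 CPM in texAM and 119 ± 8.53 CPM in exAM (SD, n = 2; 0.56 ± 0.11, SE, adjusted p = 0.00241). The exAM libraries enter this contrast and the ones above with opposite signs. Ddx3y was counted in exAM but not in texAM, so the sex of the pools and lung residence cannot be told apart here.

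The third comparison set texAM beside tAM, which had spent the same 4 months in a recipient lung. No member was called between texAM and tAM by edgeR, where 1 of all 14537 genes was called (0.00688%), and the smallest adjusted p of a member was 0.375. At an unadjusted p under 0.05, 10 of 26 members passed, all of them higher in texAM, against 7.84% of all tested genes. The DESeq2 Wald test called 1 member, Lss, at an adjusted p of 0.0431, and 73 genes in all. Log2 changes were above 0 in 20 members and below 0 in 6, with a median of 0.22 against 0.00 over all genes. The median standard error of a member was 0.19.

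The 10 members were Lss, Hsd17b7, Cyp51, Sc5d, Sqle, Stard4, Insig1, Nsdhl, Mbtps2 and Fdps. Among other enzymes from squalene synthesis to the late steps, Fdft1, Msmo1, Ebp and Tm7sf2 did not pass. Their log2 changes were 0.26, 0.20, 0.00 and -0.35. Lss, singled out with its values known, stood at 63.5 and 65.6 CPM in tAM, 98.7 and 104 CPM in texAM, 82.9 and 69.1 CPM in HostAM, and 82.0 and 85.1 CPM in exAM. The texAM libraries were the highest of all 8, with a log2 change of 0.65 ± 0.14 over tAM (adjusted p = 0.375, and 0.0332 to 1 over the alternatives). Sc5d and Hsd17b7 had log2 changes of 0.70 ± 0.22 and 0.58 ± 0.14. Dhcr7, Soat1 and Srebf2 had changes of -0.09 ± 0.16, -0.05 ± 0.10 and 0.08 ± 0.10. In 13 of 26 members both texAM libraries lay above both tAM libraries, against 21.9% of all tested genes. Marker levels moved with this pair too. Lymphocyte markers summed to 144 and 110 CPM in texAM against 39.8 and 78.9 CPM in tAM, and monocyte markers to 202 and 158 CPM against 119 and 127 CPM. Their part in the difference was not tested.

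**Figure D4:**
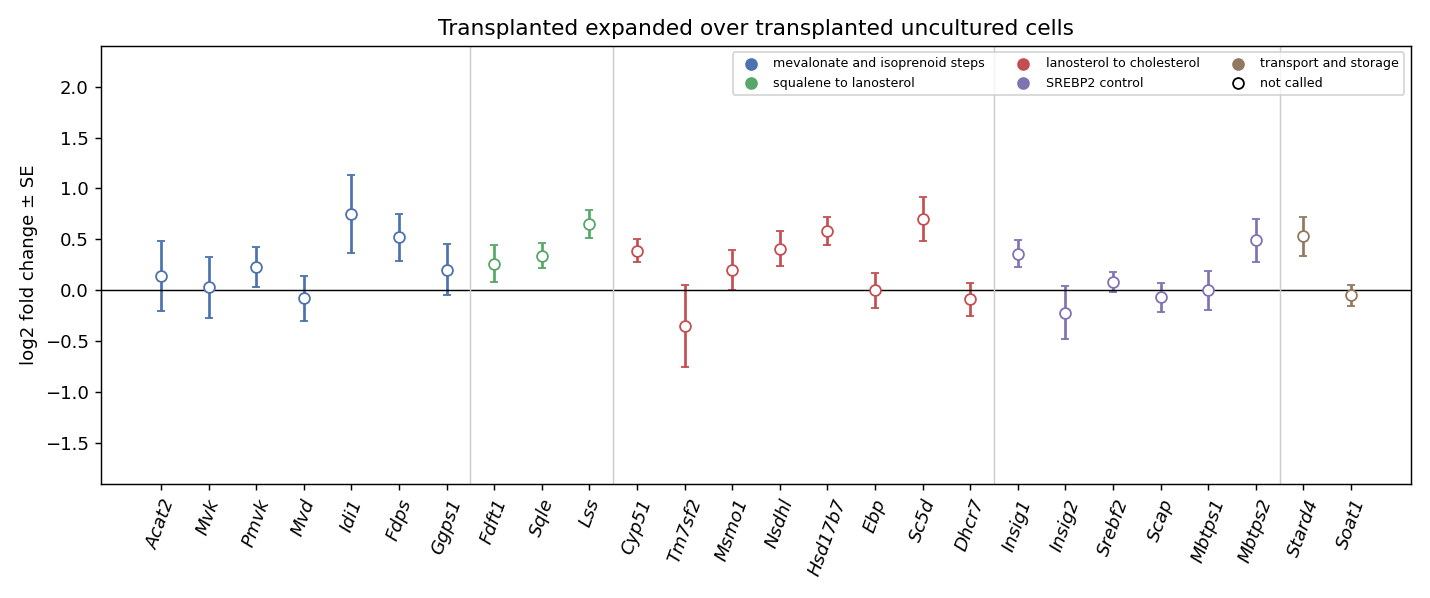
Log2 fold change of texAM over tAM for each member, with its standard error, by edgeR, on the same axis as the plot of culture over lung. All points are open, since none was called. Points of 20 members lie above 0, and Lss has a value of 0.65.

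Resident cells of the recipient strain gave no call either. Between tAM and HostAM, 0 of 26 members passed by edgeR and by the DESeq2 Wald test, where edgeR called 0.0413% of all genes and DESeq2 called 187 genes. Between texAM and HostAM 0 passed by either test, where edgeR called 0.33% of all genes and DESeq2 called 382 genes. At an unadjusted p under 0.05, 4 members passed between tAM and HostAM. These were Hsd17b7, Sc5d, Insig1 and Stard4, all lower in tAM, against 10.0% of all genes. Between texAM and HostAM 5 passed, against 13.2%, with Idi1, Lss, Cyp51 and Ggps1 higher and Scap lower in texAM. The comparisons share libraries with each other. Over the 3 lung groups in 1 test of any difference, 0 members were called by edgeR, where 0.275% of all genes were. At an unadjusted p under 0.05, 7 members passed, against 12.0% of all genes, and the DESeq2 likelihood ratio test called Lss (adjusted p = 0.0312) and 419 genes in all. The mean was highest in texAM for 15 of the 26 members, in HostAM for 9 and in tAM for 2. The same count over all genes is not given here, so this order is not a result about the members. It also includes near ties, such as Mvk, whose highest lung mean was 1.03-fold its lowest.

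Genes of fatty acid synthesis, which the related factor SREBP1 controls, were split in culture as well. Of 18 in the list, 7 were higher and 7 lower in exAM than in the lung average, where 25.5% and 26.6% of all genes were called, and the median log2 change was 0.10. Srebf1, picked for mention with its values known, stood at 148, 101 and 132 CPM in the means of tAM, texAM and HostAM and at 71.3 CPM in exAM (-0.81, adjusted p = 0.000718). The largest rises were those of the desaturase Fads1 (1.82, adjusted p = 1.43e-06) and the elongase Elovl6 (1.07, adjusted p = 0.0199). Elovl6 was at 38.4 and 128 CPM in exAM and at 33.9 to 54.2 CPM in the lung libraries, so that 1 exAM library carried it. The largest falls were those of the desaturase Fads2, with 1 and 0 counts in exAM and 0 to 46 in the lung libraries (adjusted p = 0.0411), and of the lipid droplet gene Pnpla3 (-2.97, adjusted p = 0.00027). None of the 18 was called between texAM and tAM by edgeR, which called 1 of 14537 genes there.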

How the data were processed

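RNA was sequenced from 8 libraries, 2 per group. The deposited values are raw counts of reads per gene. The submitters' processing notes name Bowtie, HTSeq 0.6.1, R 3.3 and the build mm10 (GRCm38), while parameters, strand setting and annotation are not given in the sources used here. The texAM columns are abbreviated and were matched by name. The 2 pools per group set the precision.

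Libraries were made from cDNA amplified from small amounts of total RNA, per the labels' protocols. Counts were analysed with edgeR 4.0.16 in R 4.3.3. Genes were filtered by filterByExpr (minimum 10 counts), scaled by TMM and fitted by a robust quasi-likelihood model with 1 coefficient per group on all 8 libraries (4 residual degrees of freedom). Adjusted p are Benjamini-Hochberg over all 14537 tested genes. The SE is the log2 change divided by the square root of F. The script was tested on simulated counts. Lengths and positions come from GENCODE M21. The members and lists were chosen with earlier results of these data known.

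Values in every library are given for members called in at least 1 of the 6 contrasts, where the group with more reached 10 CPM and libraries did not overlap (15 members), and for Srebf2, Scap, Insig1 and Insig2. The other 9 are given by ranges, changes or counts. From each companion list the 2 largest called changes per direction are named. The sterol response element rule for printing promoters left no called member. Alternatives were DESeq2 1.42.0, other scalings and filters, a replicate block, fewer libraries, a 2-fold minimum and genes under 0.5 counts per base.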

Additional observations from a re-analysis of the deposited data

How the results depend on the processing

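No call of a member changed direction under any alternative. Of 34 calls of single members over the 6 contrasts, 18 held under all alternatives other than a 2-fold minimum, and 11 of the 34 met that minimum. For exAM against the lung average, higher calls numbered 7, with 4 under scaling by library size alone and 2 at a 2-fold minimum, and 5 to 9 when single libraries were left out. Lower calls numbered 6, with 1 at a 2-fold minimum and 3 to 6 without single libraries. For exAM against tAM, higher calls numbered 8, with 3 at a 2-fold minimum, and lower calls 3, with 6 under scaling by library size, 1 at a 2-fold minimum and 1 to 3 without single libraries. For texAM against exAM, higher calls numbered 7, with 2 at a 2-fold minimum and 3 to 7 without single libraries, and lower calls 3, with 1 among genes under 0.5 counts per base, a setting that leaves out Dhcr7 and Soat1. For texAM against tAM, 1 member was higher with no minimum count set and 1 by DESeq2, Lss in both. The test of any difference among lung groups called 1 member, Lss, without a filter and 1 by the DESeq2 likelihood ratio test, which was added after the data were seen because the Wald test takes 1 contrast at a time. Apart from those of DESeq2 named above, calls over all genes under the alternatives are not given here, so these counts describe the members only. Where not stated above, the cause of a changed count was not tested.

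Replicate numbers are shared between groups, and the differences of replicate 1 from 2 correlated between groups at -0.06 to 0.01. No pairing was seen in this way, but such a correlation cannot exclude shared recipients or batches. With a replicate block, 13 members were called for exAM against the lung average (7 higher and 6 lower), as without it, and 7 rather than 8 were higher against tAM, where Sqle lost its call. With 2 libraries per group, a difference that misses the threshold is not shown to be absent.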

Other observations

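Genes that use, import or move sterols and isoprenoids were counted in the same libraries, in lists that hold no member of the pathway above. In exAM against the lung average, 6 of 12 tested genes of sterol uptake and lysosomal release were higher and 1 lower, where 25.5% and 26.6% of all genes were called. Lrpap1, a chaperone of lipoprotein receptors, was at 91.3, 89.3 and 106 CPM in the means of tAM, texAM and HostAM and at 674 CPM in exAM (log2 change 2.82, edgeR adjusted p = 1.24e-08). Npc1, the transporter that releases cholesterol from lysosomes, rose to 925 CPM from 551 to 646 CPM in the lung groups. Gramd1a, for a sterol carrier of the endoplasmic reticulum, was the gene that fell (-0.91, adjusted p = 0.00298).

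Of 16 genes of the isoprenoid branch, 5 were higher and 1 lower, where 25.5% and 26.6% of all genes were called. Nus1, a subunit of the enzyme that makes dolichol, was at 123 to 152 CPM in the lung means and 378 CPM in exAM (1.48, adjusted p = 6.78e-07), and Pggt1b, for a geranylgeranyl transferase, rose with a log2 change of 0.89. Rabggta fell (-0.81, adjusted p = 0.0105). Of 11 genes of turnover and escort factors, 5 were higher and 1 lower, beside the same shares of all genes. Pgrmc1 and Erlin2 rose (1.18 and 0.82), and Erlin1, which forms a complex with Erlin2, fell (-0.62, adjusted p = 0.00324). No gene of these lists was called between texAM and tAM by edgeR, which called 1 of 14537 genes there.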
